A study of Mus musculus with 12 samples.

Results

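The transcription factors Wt1, Tcf21, Gata4, Gata5, Gata6, Bnc1, Nr2f1 and Nr2f2 were followed across 4 mouse fat depots. They were taken as the rows of the deposited gene count table that carry these symbols, and all 8 had a row among the 23420 genes of the table. The study compared 2 brown depots, interscapular (iBAT) and supraclavicular (scBAT), with 2 white depots, epididymal (eWAT) and inguinal subcutaneous (iWAT), using 3 RNA-seq libraries for each depot. All came from male C57BL/6 mice of 8 weeks, kept at ambient temperature with no treatment and no engineered allele named in the labels. The labels do not say that the 3 libraries of a depot came from separate animals, so the p-values measure the spread between these libraries, which may be technical.

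Epididymal fat lies inside the abdominal cavity and is covered by mesothelium, a sheet of epithelial cells of mesodermal origin, whereas the other 3 depots lie outside that cavity. Wt1, Tcf21 and Bnc1 are regulators used to mark mesothelial and visceral mesenchymal cells. Gata4, Gata5 and Gata6 are zinc finger factors of the heart, gut and other inner organs, and Nr2f1 and Nr2f2 are orphan nuclear receptors, also called COUP transcription factors, that act in mesenchyme, nerve cells and vessels.

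The libraries held 17159401 to 29262554 counts each, and 14898 genes passed a filter on low counts and were tested. Levels are given as counts per 1000000 (CPM) after scaling of library sizes, and a gene was called when its p-value, adjusted over all tested genes, was under 0.05 in edgeR's quasi-likelihood test. A list of 10 adipocyte genes included Ucp1, Cidea and Dio2, which were called lower in eWAT than in each brown depot. Another 3 of the list were called higher in eWAT than in iBAT, and 1 was called higher than in scBAT. The summed level of the list was 11260 to 13060 CPM in both brown depots and 9530 to 10620 CPM in eWAT. In iWAT 1, 2 and 3 the sum was 6254, 10590 and 3893 CPM. The same iWAT libraries stood apart in lymphocyte genes, with B cell markers summing to 1769, 101.4 and 2431 CPM and T cell markers to 1251, 85.26 and 1939 CPM. Each iWAT result for the 8 genes is therefore given without iWAT 1 and 3 where that changed a call. The part of lymphocytes in the iWAT results was not tested.

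Wt1, Bnc1, Tcf21 and Gata5 were detected almost solely in eWAT. All 8 genes were called higher in eWAT than in iBAT, where 27.5% of tested genes were called higher, and all 8 were higher than in scBAT, where the share was 25.8%. Against iWAT, 7 of the 8 were called higher, beside 11.0% of tested genes, with Gata4 the exception. The same 7 were higher in eWAT than in each other depot, a pattern met by 7.11% of tested genes. Wt1, Tcf21, Gata5 and Bnc1 passed the filter on low counts only through their eWAT libraries and so had to differ, and their calls are a description. Gata4 passed it through 2 iWAT libraries and 1 eWAT library and through no brown fat library. Its calls of white over brown fat are therefore a description too. Gata6, Nr2f1 and Nr2f2 passed the filter in all 12 libraries. In whole tissue, more cells of a type and more RNA per cell cannot be told apart.

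**Figure D1:**
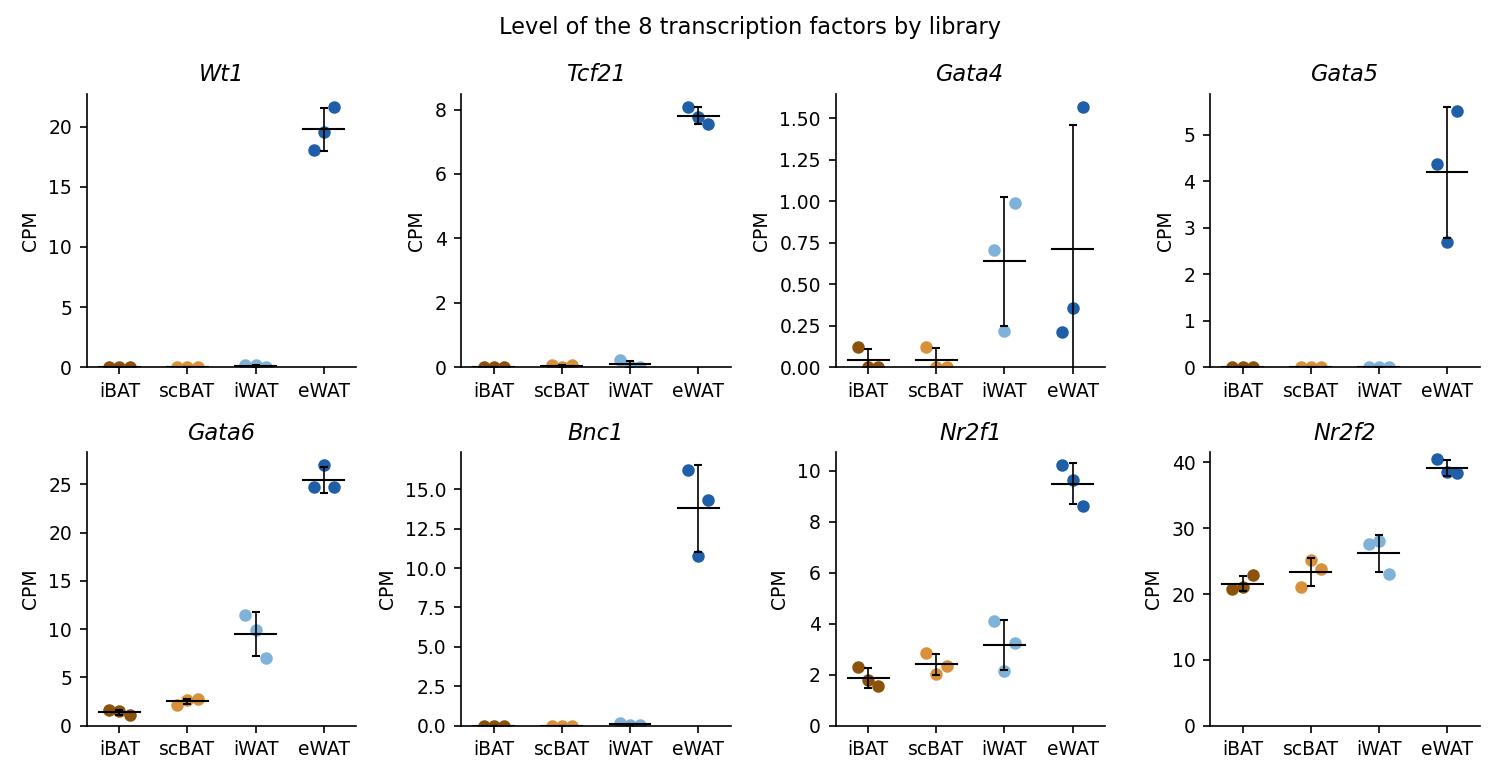
Level of each of the 8 genes in the 12 libraries. The vertical axes show CPM on a linear scale from 0 and differ between genes, points are libraries, bars are depot means and error bars are SD over 3 libraries, cut off at 0. Wt1, Tcf21, Gata5 and Bnc1 lie at or near 0 outside eWAT, Gata6, Nr2f1 and Nr2f2 are present in all depots and highest in eWAT, and Gata4 overlaps between iWAT and eWAT.

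Wt1, a zinc finger factor needed for kidney, gonad and mesothelium development, lies on chromosome 2 at 105126529 to 105173616 on the plus strand (GRCm38). Its level was 18.1, 19.6 and 21.7 CPM in the 3 eWAT libraries and 0.176, 0.176 and 0.0329 CPM in iWAT. No read was counted in any of the 6 brown fat libraries. The eWAT libraries lay far above all others, and the few iWAT reads were 5, 4 and 1 in number. The ratio of eWAT to iWAT was 162, with a 95% counting interval of 87.8 to 338, and the log2 difference was 7.25 with a standard error (SE) of 0.48 (adjusted p = 0.000631). Against a floor of 3 counts over the 3 libraries of a depot, eWAT was at least 315-fold higher than iBAT (adjusted p = 2.23e-05) and at least 329-fold higher than scBAT (adjusted p = 2.69e-05). The lower limits of the 95% counting interval were below these bounds, at 256 for iBAT and 267 for scBAT. Counting intervals and floors cover counting error only.

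Bnc1, or basonuclin 1, is a zinc finger protein known from keratinocytes, germ cells and mesothelium, and its gene lies on chromosome 7 at 81966672 to 81992292 on the minus strand. The eWAT libraries had 16.2, 10.8 and 14.3 CPM and the iWAT libraries 0.141, 0.0440 and 0.0658 CPM, from 4, 1 and 2 reads. No read was counted in brown fat. The pattern thus matched that of Wt1 in order, with a larger spread in eWAT, where the coefficient of variation was 20% for Bnc1 and 9.14% for Wt1. Bnc1 was 162 times as high in eWAT as in iWAT (counting interval 78.4 to 404, log2 difference 7.24, SE 0.44, adjusted p = 0.000465). It was at least 220-fold higher than in iBAT (adjusted p = 1.61e-05) and at least 230-fold higher than in scBAT (adjusted p = 1.93e-05).

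Tcf21, a basic helix-loop-helix factor of visceral mesenchyme and epicardium, is encoded on chromosome 10 at 22817281 to 22820174 on the minus strand. Its eWAT libraries were close together at 8.09, 7.77 and 7.56 CPM, a coefficient of variation of 3.45%. In iWAT it had 0.211, 0.0440 and 0 CPM. The white depots did not overlap, and scBAT held 2 reads in all and iBAT none. The eWAT to iWAT ratio was 90.8 (counting interval 43.8 to 227, log2 difference 6.42, SE 0.75, adjusted p = 0.00199). The eWAT to scBAT ratio was 194 (counting interval 53.4 to 1600, adjusted p = 0.000142). Against the floor of 3 counts, eWAT was at least 124-fold higher than iBAT (lower limit of the counting interval 100, adjusted p = 8.46e-05).

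Gata5 was the 1 member with reads in eWAT alone. Its gene lies on chromosome 2 at 180325133 to 180334699 on the minus strand. The eWAT libraries had 4.37, 2.70 and 5.52 CPM, from 123, 68 and 176 reads, and none of the other 9 libraries had a read. Against the floor of 3 counts, it was at least 117-fold higher than in iWAT (adjusted p = 0.00487), at least 68.2-fold higher than in iBAT (adjusted p = 0.000786) and at least 71.3-fold higher than in scBAT (adjusted p = 0.000846). The lower limits of the counting intervals were 94.6, 55.2 and 57.7 in the same order. These bounds are lower than those of Wt1 because Gata5 had fewer reads in eWAT. By the smallest of its 3 fitted log2 differences between eWAT and another depot, Gata5 ranked 1 among the 14898 tested genes, Wt1 ranked 7, Bnc1 8 and Tcf21 17, although fitted values of genes without reads depend on the small count added in the fit.

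Stretches of up to 250 bases upstream of the RefSeq start are shown for 3 of the genes restricted to eWAT and for Nr2f2, which was present in all depots, because they differ widely in base composition. They read 5′ to 3′ on the gene's strand in GRCm38.p6 and leave out bases inside a GENCODE transcript of the gene. Gata5 is at chr2:180334700-180334929, Bnc1 at chr7:81992300-81992549, Tcf21 at chr10:22820175-22820393 and Nr2f2 at chr7:70366747-70366996, all on the minus strand. Capitals mark matches to GTGGGAG, a Wt1 motif, or to a motif of GATA factors, read on either strand. The forms searched for GATA factors were AGATAA and, differing at the first base, TGATAA. The forms AGATAG and, again with another first base, TGATAG were also searched.
Gata5: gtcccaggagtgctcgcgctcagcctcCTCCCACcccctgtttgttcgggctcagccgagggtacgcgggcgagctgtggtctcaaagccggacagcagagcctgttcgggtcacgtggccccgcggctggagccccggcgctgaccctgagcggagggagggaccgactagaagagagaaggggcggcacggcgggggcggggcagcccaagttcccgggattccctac
Bnc1: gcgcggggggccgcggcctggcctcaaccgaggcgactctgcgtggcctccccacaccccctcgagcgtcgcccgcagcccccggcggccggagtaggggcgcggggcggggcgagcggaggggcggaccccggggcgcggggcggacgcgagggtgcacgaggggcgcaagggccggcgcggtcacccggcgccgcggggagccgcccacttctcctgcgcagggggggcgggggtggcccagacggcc
Tcf21: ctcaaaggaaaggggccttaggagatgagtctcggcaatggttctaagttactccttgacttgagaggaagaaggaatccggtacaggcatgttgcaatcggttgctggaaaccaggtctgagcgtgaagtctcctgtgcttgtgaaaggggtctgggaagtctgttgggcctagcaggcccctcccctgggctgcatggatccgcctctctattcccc
Nr2f2: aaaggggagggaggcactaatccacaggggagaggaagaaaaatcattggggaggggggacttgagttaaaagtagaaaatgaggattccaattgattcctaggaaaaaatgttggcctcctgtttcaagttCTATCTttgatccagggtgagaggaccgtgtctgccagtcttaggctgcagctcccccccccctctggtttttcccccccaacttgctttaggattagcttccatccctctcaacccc

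Over the full 250 bases, Bnc1 was 83.6% G or C with 39 CpG dinucleotides, a GC content above that of 99.7% of 32851 RefSeq windows of this length, whose median was 52.4%. The Gata5 window was 70% G or C with 22 CpG, the Tcf21 window 52.4% with 5 CpG and the Nr2f2 window 50% with 1 CpG. Genes restricted to eWAT thus had both CpG-dense and CpG-poor upstream sequence. Gata5 held the letters CTCCCAC, the reverse of GTGGGAG on the other strand, starting 223 bases before its start, and 8.25% of all windows hold this motif. A GATA motif was found in Nr2f2, 118 bases before the start and on the opposite strand, and in Tcf21, 31 bases before the RefSeq start and inside the GENCODE transcript, so it is not in the stretch shown. A GATA motif was present in 26.5% of all windows. The nuclear receptor half-site AGGTCA, present in 14% of windows, and the E-box CAGCTG, present in 13%, had no match in the windows of these 4 genes or in either RefSeq window of Nr2f1. The matches are a description of letters and not of binding. The RefSeq table matched Gata5, Bnc1, Tcf21, Nr2f1 and Nr2f2, and the upstream sequences of Wt1, Gata4 and Gata6 were not used here.

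Gata6 was present in every depot and rose in steps from brown fat to iWAT to eWAT. The iBAT libraries had 1.59, 1.53 and 1.10 CPM and the scBAT libraries 2.17, 2.63 and 2.73 CPM. The level was 11.5, 9.95 and 7.05 CPM in iWAT and 24.7, 27.0 and 24.7 CPM in eWAT. No library of one depot overlapped with those of another. eWAT was 2.70 times as high as iWAT (counting interval 2.48 to 2.93, log2 difference 1.42, SE 0.20, adjusted p = 0.00227), 10.1 times as high as scBAT (log2 difference 3.34, SE 0.22, adjusted p = 1.68e-06) and 18 times as high as iBAT (log2 difference 4.17, SE 0.23, adjusted p = 5.06e-07).

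Gata6 also separated iWAT from brown fat, by 6.67 times against iBAT (log2 difference 2.75, SE 0.22, adjusted p = 5.49e-06) and by 3.74 times against scBAT (log2 difference 1.92, SE 0.21, adjusted p = 3.95e-05). Both calls held in each of 20 alternative analyses, including the one without iWAT 1 and 3. Between the brown depots, no member was called by edgeR, DESeq2 or limma-voom, and 0.329% of tested genes were called in either direction by edgeR. Gata6 was the 1 member with an unadjusted p under 0.05 there in each of the 3 tools. It was 1.78 times as high in scBAT as in iBAT (counting interval 1.32 to 2.44, log2 difference 0.83, SE 0.23, unadjusted p = 0.00371, adjusted p = 0.307). Without iWAT 1 and 3 in the shared estimate of spread, this adjusted p was 0.0355.

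Gata4, the heart and gonad member of the family, behaved unlike the other 7 genes and was near the limit of detection. Its level was 0.213, 0.357 and 1.57 CPM in eWAT, from 6, 9 and 50 reads, and 0.703, 0.220 and 0.988 CPM in iWAT, from 20, 5 and 30 reads. Each brown depot held 2 reads, all in its first library. The white depots overlapped, with a ratio of 1.13 (counting interval 0.777 to 1.65, log2 difference 0.16, SE 0.82, adjusted p = 0.887), and the eWAT mean of 0.713 ± 0.744 CPM (SD, n = 3) was carried by eWAT 3. The fitted difference was -1.15 without eWAT 3, -0.22 without iWAT 2 and 1.66 without iWAT 1 and 3. eWAT 3 also stood apart in the epithelial genes Krt8 and Cdh1 and in B cell genes. Krt8 was 98.1 CPM there and 18.8 and 16.7 CPM in eWAT 1 and 2, and Cdh1 was 17.7 CPM against 0.178 and 0.555 CPM. B cell markers summed to 47.47 CPM against 7.666 and 9.993 CPM. Other keratins differed less, with Krt18 at 13.4 CPM against 10.5 and 10.4 CPM and Krt19 at 72.5 CPM against 58.8 and 34.5 CPM. Krt7, at 18.4 CPM, lay between eWAT 1 and 2. In addition, 3 visceral mesoderm regulators too low to be tested had 7 to 9 reads in eWAT 3 and none in the other eWAT libraries. The part of these cells in the level of Gata4 was not tested.

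Gata4 was called higher in eWAT than in iBAT (ratio 18.1, counting interval 4.82 to 153, adjusted p = 0.024) and scBAT (ratio 18.9, counting interval 5.04 to 160, adjusted p = 0.0235). Because it passed the filter on low counts through white fat libraries alone, these calls are a description. Neither call held without eWAT 3, with adjusted p of 0.12 and 0.116. The call against iBAT was also lost without iBAT 2 (adjusted p = 0.0839) or iBAT 3 (adjusted p = 0.0815), and that against scBAT without scBAT 2 (adjusted p = 0.0841) or scBAT 3 (adjusted p = 0.0808). Gata4 lies on chromosome 14 at 63198922 to 63271692 on the minus strand.

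Among the other GATA genes, chosen for naming after their values were seen, Gata2 was highest in brown fat, at 23.1 ± 2.67 CPM in iBAT and 15.6 ± 0.967 CPM in eWAT (SD, n = 3), with no call for eWAT against any depot. Gata3, a factor of T cells and other lineages, was 1.10 ± 0.225 CPM in eWAT and 7.07 ± 5.49 CPM in iWAT (log2 difference -2.68, SE 0.67, adjusted p = 0.0189), beside the T cell markers that were high in iWAT 1 and 3. It had 8.79 and 11.5 CPM in those libraries but 0.924 CPM in iWAT 2, within the range of the eWAT libraries. Gata1 had too few counts to be tested.

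Nr2f1 and Nr2f2 were expressed in all 12 libraries and rose in eWAT by 1.51 to 4.99 times over each other depot. Nr2f1 had 10.2, 9.64 and 8.62 CPM in eWAT and 4.11, 2.16 and 3.26 CPM in iWAT. It had 2.86, 2.02 and 2.35 CPM in scBAT and 2.32, 1.78 and 1.55 CPM in iBAT. The eWAT libraries were above all others, and the other 3 depots overlapped. The ratio of eWAT was 2.91 to iWAT (log2 difference 1.58, SE 0.26, adjusted p = 0.00457), 3.95 to scBAT (log2 difference 1.98, SE 0.27, adjusted p = 0.000143) and 4.99 to iBAT (log2 difference 2.33, SE 0.28, adjusted p = 4.56e-05).

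Nr2f2, the relative known from venous and lymphatic endothelium and from mesenchyme, was the most abundant member in every depot per kilobase of exon. Its level was 40.6, 38.5 and 38.3 CPM in eWAT and 27.6, 28.0 and 23.0 CPM in iWAT. The scBAT libraries had 21.0, 25.2 and 23.8 CPM and the iBAT libraries 20.7, 21.1 and 22.9 CPM. The eWAT libraries again lay above all others, by ratios of 1.51 to iWAT (log2 difference 0.58, SE 0.11, adjusted p = 0.00715), 1.67 to scBAT (log2 difference 0.75, SE 0.11, adjusted p = 0.000261) and 1.81 to iBAT (log2 difference 0.86, SE 0.11, adjusted p = 8.69e-05). With only the 2 white depots in the fit, the calls against iWAT were lost for Nr2f1 (adjusted p = 0.0722) and Nr2f2 (adjusted p = 0.0896), and that of Nr2f2 also without iWAT 1 and 3 (adjusted p = 0.0551).

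Markers of venous and lymphatic endothelium, a cell type known for Nr2f2, summed to 890.1 to 946.3 CPM in eWAT and 718.7 to 1057 CPM in the other depots, so the ranges overlapped. None of the 10 tested was higher in eWAT than in each other depot, but 4 were higher than in scBAT and 1 lower. Single markers, named after their values were seen, went both ways. Lyve1 was 84, 56.6, 17 and 6.17 CPM in eWAT, iWAT, scBAT and iBAT, and Nrp2 was 69.1, 74.9, 198 and 225 CPM. The part of endothelial cells in the level of Nr2f2 was not tested. The Nr2f1 and Nr2f2 genes lie at 78188973 to 78199757 on chromosome 13 and at 70351944 to 70366735 on chromosome 7, both on the minus strand. Each has exon bases within the span, introns included, of a gene on the other strand, 1638 bases for Nr2f1 in A830082K12Rik and 643 bases for Nr2f2 in B130024G19Rik. A830082K12Rik was 1.77 CPM in eWAT and 0.744 CPM in iWAT (log2 difference 1.25, adjusted p = 0.0159), while B130024G19Rik was 2.27 and 1.58 CPM (adjusted p = 0.291). Both were called higher in eWAT than in iBAT and scBAT. The ratios were 2.72 and 2.93 for A830082K12Rik (adjusted p = 0.00273 and 0.00184). For B130024G19Rik they were 2.48 and 3.94 (adjusted p = 0.0186 and 0.00264). Whether the counting used strand is not given in the sources used here, and without strand the reads of overlapping partners cannot be told apart. Tcf21, Gata5, Gata6 and Bnc1 also have exon bases within the span of a gene on the other strand, and Tcf21 lies wholly inside one.

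**Figure D2:**
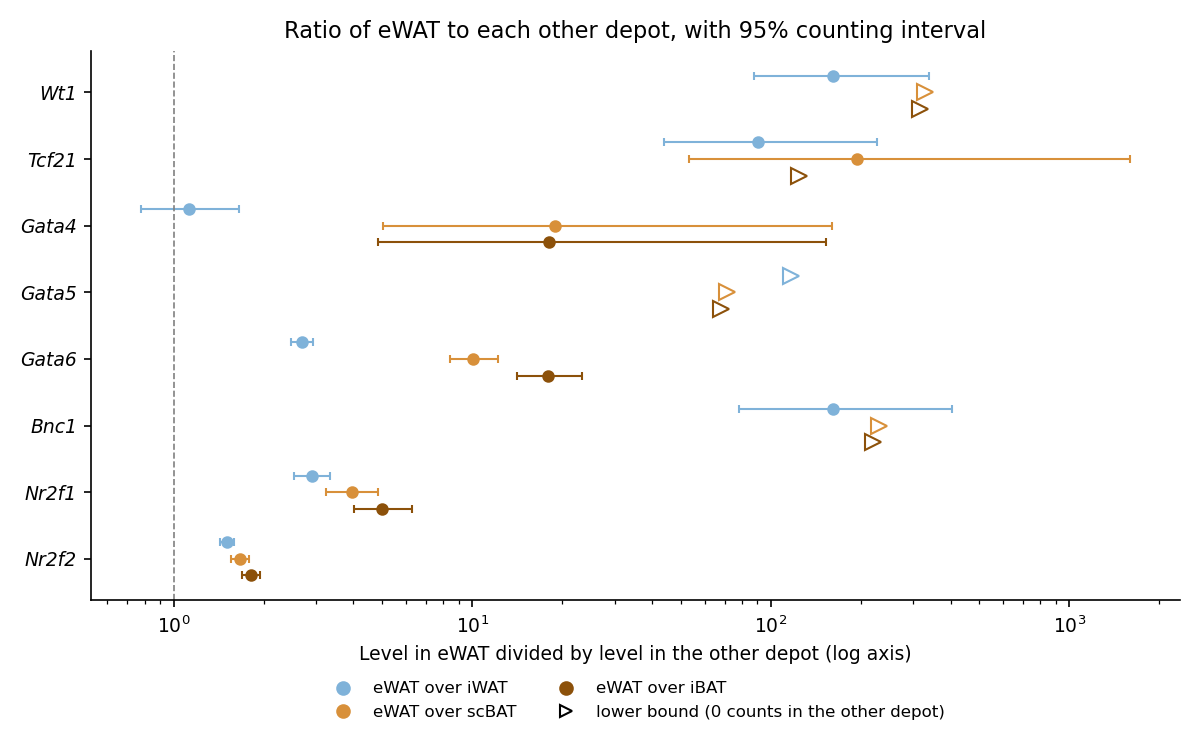
Ratio of the summed eWAT level to that of each other depot for the 8 genes, on a log axis. Points are ratios with 95% counting intervals as error bars, and lower bounds against a floor of 3 counts are drawn as open triangles where the other depot had no read. Wt1, Bnc1, Tcf21 and Gata5 lie at about 68.2 or above in all comparisons, whereas Nr2f2 lies between 1.51 and 1.81 and Gata4 against iWAT has an interval from 0.777 to 1.65.

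The second white depot, iWAT, was compared with brown fat to see which members extend beyond eWAT. Against iBAT, 6 of 8 members were called higher, beside 35.2% of tested genes, and against scBAT 4 of 8, beside 33.5%. None was called lower in either. Gata6 was the member with the firmest difference, as given above. Wt1, with 10 reads in iWAT and none in brown fat, was at least 1.94-fold higher than in iBAT (adjusted p = 0.0171) and at least 2.03-fold higher than in scBAT (adjusted p = 0.0163), with lower limits of the 95% counting interval of 1.31 and 1.37. Bnc1, with 7 reads against none, was called against iBAT (adjusted p = 0.0206) and scBAT (adjusted p = 0.0187), but the lower limits of its counting intervals were ratios of 0.84 and 0.879, so counting error alone allows no difference. Gata4 had 55 reads in iWAT, a ratio of 16.0 to iBAT (counting interval 4.23 to 136, adjusted p = 0.0259), and an adjusted p of 0.0248 against scBAT. These Gata4 calls are a description, since the gene passed the filter on low counts through white fat alone.

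Nr2f1 was called higher in iWAT than in iBAT (ratio 1.72, log2 difference 0.75, SE 0.27, adjusted p = 0.0311) although the libraries overlapped, and Nr2f2 by a ratio of 1.21 (log2 difference 0.28, SE 0.11, adjusted p = 0.0473). Neither was called against scBAT (adjusted p = 0.208 and 0.213). Tcf21 was not called in iWAT against iBAT (7 reads against 0, adjusted p = 0.0815) or scBAT (7 against 2, adjusted p = 0.491). Without iWAT 1 and 3 the number of members called fell from 6 to 3 against iBAT and from 4 to 2 against scBAT. With those 2 libraries out, Gata4 had adjusted p of 0.313 and 0.305, Bnc1 of 0.201 and 0.198, and Nr2f1 of 0.627 against iBAT. Leaving out 1 library also lost calls: Gata4 without iWAT 1 (adjusted p = 0.0523 and 0.0508) or iWAT 3 (0.0639 and 0.0612), and Bnc1 without iWAT 1 (0.084 and 0.0806). Gata4 also lost its calls without library 2 or 3 of the brown depot compared, with adjusted p of 0.0808 to 0.085, and Bnc1 without any 1 of that depot, with 0.0519 to 0.0597. Nr2f1 against iBAT was lost without iWAT 1 (adjusted p = 0.139), iWAT 3 (0.0576), iBAT 2 (0.0892) or iBAT 3 (0.11), and Nr2f2 without any 1 of the 12 libraries except iWAT 3. Without iWAT 3, Tcf21 gained a call against iBAT (adjusted p = 0.0158), and without iWAT 2 Nr2f1 gained one against scBAT (0.0297).

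Levels of different genes were compared per kilobase of exon, using the summed exon length of each gene in GENCODE M21. In eWAT the order was Nr2f2 at 4.54 ± 0.144, Gata6 at 3.91 ± 0.210, Tcf21 at 3.32 ± 0.115, Wt1 at 3.19 ± 0.292, Bnc1 at 2.97 ± 0.594, Nr2f1 at 1.86 ± 0.159, Gata5 at 1.28 ± 0.433 and Gata4 at 0.183 ± 0.191 CPM per kb (SD, n = 3). Tcf21 and Wt1, and Wt1 and Bnc1, differed by less than the larger of their SDs, and all other neighbours in this order by more. The sum over the 8 genes was 21.3 ± 0.898 CPM per kb in eWAT and 5.36 ± 0.723 in iWAT, against 3.59 ± 0.179 in scBAT and 3.10 ± 0.059 in iBAT.

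The make-up of this sum differed between depots. Nr2f2 accounted for 21.4% ± 0.896 of it in eWAT and 56.9% ± 4.35 in iWAT, but for 75.2% ± 3.32 in scBAT and 80.7% ± 4.12 in iBAT (SD, n = 3). The share of Gata6 was largest in iWAT at 27%, followed by eWAT at 18.5%, scBAT at 10.7% and iBAT at 6.98%. Wt1, Tcf21 and Bnc1 made up 15%, 15.7% and 13.9% in eWAT. The ratio of Nr2f2 to Nr2f1 per kilobase was 2.34, 2.36 and 2.62 in the eWAT libraries, below the range of 3.96 to 8.73 in the other 9. The ratio of Nr2f2 to Gata6 per kilobase was lowest in eWAT at 1.08 to 1.24, then 1.81 to 2.46 in iWAT, 6.58 to 7.29 in scBAT and 9.84 to 15.8 in iBAT, with no overlap between depots.

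**Figure D3:**
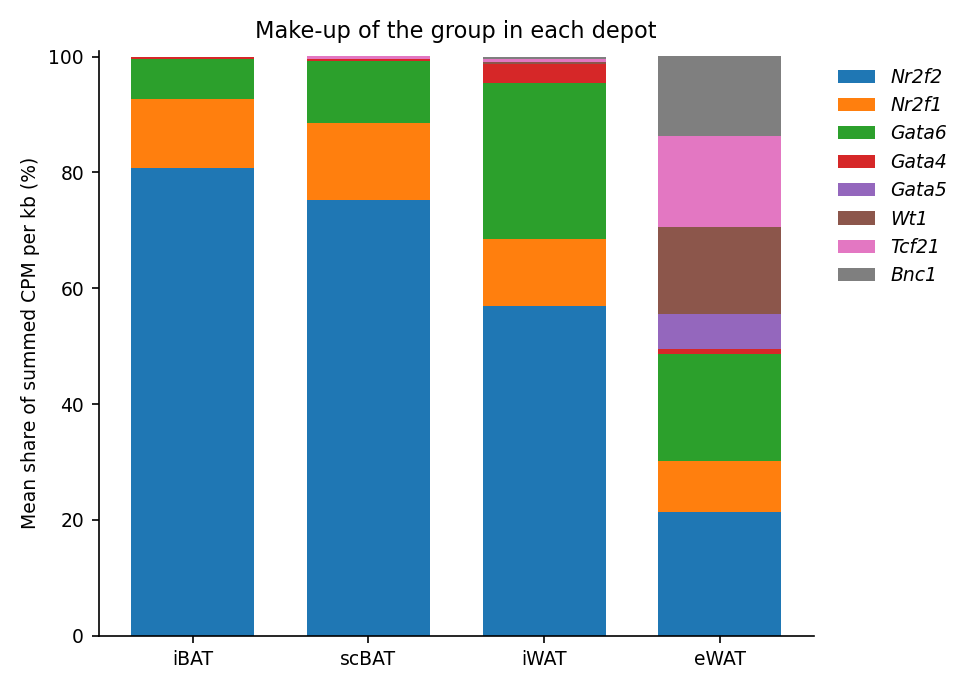
Mean share of each of the 8 genes in their summed CPM per kilobase, in percent, for each depot over 3 libraries. Nr2f2 makes up 80.7% of the bar in iBAT and 21.4% in eWAT, where Wt1, Tcf21, Bnc1 and Gata6 take between 13.9% and 18.5% each.

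Mesothelial markers moved in the same direction as the members. Of 14 tested markers, 11 were higher in eWAT than in each other depot, beside 7.11% of all tested genes. The median log2 difference between eWAT and iWAT was 5.94, beside 0.000512 over all tested genes. Mesothelin (Msln), a surface protein of mesothelium, was 96.0 ± 20.2 CPM in eWAT and 0.380 ± 0.226 CPM in iWAT (log2 difference 7.96, adjusted p = 0.000165). The uroplakin Upk3b was 172 ± 13.2 and 0.871 ± 0.890 CPM (log2 difference 7.59, adjusted p = 0.0017), and its relative Upk1b was 44.0 ± 5.15 and 0.273 ± 0.167 CPM (log2 difference 7.27, adjusted p = 0.000361). Nkain4 was 25.2 ± 2.72 and 0.218 ± 0.133 CPM (log2 difference 6.85, adjusted p = 5.98e-05, and all spreads are SD, n = 3). The markers named here would not have passed the filter on low counts without their eWAT libraries. Their calls, which are part of the count of 11, are therefore a description.

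The summed level of 15 mesothelial markers was 661.5 to 878.2 CPM in eWAT, 35.36 to 79.67 CPM in iWAT, 33.94 to 81.01 CPM in scBAT and 38.76 to 43.2 CPM in iBAT. Outside eWAT a few genes made up much of this sum. Cldn15 averaged 38.8, 23.3 and 28.3 CPM and Lrrn4 3.84, 9.39 and 8.31 CPM in iWAT, scBAT and iBAT. In scBAT 2, Krt18, Krt8 and Cdh1 were 23.0, 11.0 and 6.39 CPM. Cldn15, Krt18 and Cdh1 were the tested markers not called higher in eWAT than in each other depot. Msln, Upk3b, Upk1b and Calb2 had no read in iBAT, and Upk3b, Upk1b and Calb2 none in scBAT. Only Calb2 had none in iWAT, where Wt1 and Bnc1 were also detected at a low level. The part of mesothelial cells in the levels of the 8 genes was not tested.

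Markers of other tissues that adjoin epididymal fat were also summed, and the part of these tissues in the levels of the members was not tested. Testis and gonad genes summed to 15.11 to 18.42 CPM in eWAT and 7.04 to 11.79 CPM elsewhere, so this low sum was highest in eWAT. Dmrt1, Hsd3b1, Tnp1, Prm1 and Prm2 were at 0 in eWAT. Of 6 tested, Sox9 was higher in eWAT than in each other depot, at 4.47 ± 0.907 CPM against 0.517 ± 0.113 CPM in iWAT, and it lost that call without scBAT 1. Epididymis genes summed to 1.633, 37.99 and 1.85 CPM in eWAT 1, 2 and 3. Crisp1, which is also made outside the epididymis, gave 36.8 CPM of the eWAT 2 value and reached 450.7 CPM in scBAT 2. Lcn5, Cst11, Spint4, Rnase9, Spag11b and Ovch2 had no read in eWAT. In eWAT 2, Wt1 and Tcf21 lay between the other 2 eWAT libraries, Gata6 was highest, and Gata5 and Bnc1 were lowest.

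Adipose progenitor markers summed to 1938 to 1988 CPM in eWAT, 1197 to 1625 in iWAT, 948.5 to 975 in scBAT and 728.5 to 778.5 in iBAT, the same order as the members. Of 12 tested, the surface protein Cd34 and the matrix proteoglycan Dcn were higher in eWAT than in each other depot, beside 7.11% of tested genes. Cd34 was 201 ± 6.12 CPM in eWAT and 106 ± 49.0 in iWAT (log2 difference 0.92, adjusted p = 0.0245), and Dcn was 982 ± 33.6 and 508 ± 167 CPM (log2 difference 0.95, adjusted p = 0.0109). Against iWAT alone, 4 of the 12 were higher and 3 were lower. The 3 lower genes, named after their values were seen, were Cd55 (log2 difference -1.24, adjusted p = 0.0171), Icam1 (-1.63, adjusted p = 0.0228) and Ly6a (-0.29, adjusted p = 0.0453). In iWAT 2, Cd55 was 72.6 CPM and Icam1 23.3 CPM, near their eWAT means of 67.2 and 24.4 CPM. Cd55 and Icam1 were thus raised mainly in the lymphocyte-rich iWAT 1 and 3, whereas Ly6a was 197.5 CPM in iWAT 2 against 144 CPM in eWAT. F3 was lower in eWAT than in iBAT (-1.36, adjusted p = 0.000754) and scBAT (-1.01, adjusted p = 0.00489). The count of 2 was 1 without iWAT 1 or any 1 eWAT library and 5 without iWAT 2. The part of progenitor number in the levels of Tcf21, Gata6 and Nr2f2 was not tested. Macrophage markers summed to 1431 to 1553 CPM in eWAT and 1377 to 1606 CPM in iWAT, but to 390.6 to 430.7 CPM in scBAT and 213 to 267 CPM in iBAT. All 9 tested were higher in eWAT than in each brown depot, as Gata6 was, beside 27.5% (iBAT) and 25.8% (scBAT) of tested genes. In iWAT, likewise, 9 were higher than in iBAT and 8 higher than in scBAT, beside 35.2% and 33.5%. The part of macrophages in the levels of the members was not tested. Against both white and brown depots, C1qa was the 1 of 9 higher in eWAT, a count that ran from 0 to 5 when 1 library was left out.

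Other regulators of visceral mesoderm were examined as a list of 24 genes, of which 14 were tested. Of these, 5 were higher in eWAT than in each other depot, Isl1, Hand2, Osr1 and Meis1 among them, beside 7.11% of all tested genes. None was lower than in each other depot, and the list's median log2 difference between eWAT and iWAT was 0.51. Single genes, named after their values were seen, were lower than in 1 depot. Emx2 was lower in eWAT than in iWAT (log2 difference -1.47, adjusted p = 0.0367) but higher than in iBAT (4.46) and scBAT (1.97). Tbx18 was lower than in scBAT (-0.595, adjusted p = 0.0305) but higher than in iBAT (0.833). Isl1, a LIM homeobox factor of heart and limb-bud mesoderm, was 5.34 ± 1.55 CPM in eWAT, with 463 reads there, 3 in iWAT and none in brown fat (adjusted p = 0.00199 against iWAT). Hand2, a basic helix-loop-helix factor of heart and limb, was 0.903 ± 0.337 CPM in eWAT, with 79 reads against 1 in iWAT (adjusted p = 0.00712). Both thus had the near absence outside eWAT seen for Wt1, Bnc1, Tcf21 and Gata5, and both passed the filter through eWAT.

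Osr1, a zinc finger factor of intermediate mesoderm, was 36.5 ± 3.65 CPM in eWAT, 6.77 ± 3.71 in iWAT, 3.37 ± 0.777 in scBAT and 1.10 ± 0.339 in iBAT (log2 difference to iWAT 2.44, SE 0.37, adjusted p = 0.00356), an order like that of Gata6. The homeobox factor Meis1 was 29.8 ± 0.967 CPM in eWAT and 8.49 to 12.4 CPM on average in the other depots (log2 difference to iWAT 1.73, SE 0.23, adjusted p = 0.00199). Without iWAT 1 and 3, and likewise with only the depots of each comparison in the fit, 3 of the list were called in place of 5.

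Cofactors and close relatives of the members gave 2 of 9 tested genes higher in eWAT than in each other depot. This pattern was met by 7.11% of all tested genes, and the list's median log2 difference to iWAT was 0.40. Besides Gata3, other relatives, named after their values were seen, were lower in eWAT than in some depots. Nr2f6 was lower than in iBAT (log2 difference -1.38, adjusted p = 1.6e-05) and scBAT (-1.19, adjusted p = 4.81e-05). Tcf15 was lower than in iBAT (-0.975, adjusted p = 0.0135) but higher than in iWAT (0.845). Msc was lower than in iWAT (-1.43, adjusted p = 0.0388) but higher than in iBAT (1.5). Zfpm2, the cofactor of GATA proteins also called FOG2, was 11.8 ± 1.59 CPM in eWAT, 5.01 ± 0.522 in iWAT, 2.16 ± 0.231 in scBAT and 2.0 ± 0.178 in iBAT (log2 difference to iWAT 1.24, SE 0.18, adjusted p = 0.00261). Bnc2, the relative of Bnc1, was 23.8 ± 2.99 CPM in eWAT and 11.6 ± 4.92 in iWAT (log2 difference 1.04, SE 0.27, adjusted p = 0.0205), so unlike Bnc1 it was abundant in iWAT, and it was 1.35 to 1.88 CPM on average in brown fat. The count of 2 was 1 without iWAT 1, without any 1 eWAT library, or without iWAT 1 and 3.

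Retinoid metabolism was examined because Wt1, Tcf21 and the COUP factors are linked to retinoic acid signalling in mesoderm. Of 14 tested genes, 4 were higher in eWAT than in each other depot, Aldh1a1, Aldh1a2 and Aldh1a3 among them, beside 7.11% of all tested genes. The list's median log2 difference to iWAT was 0.31. The retinaldehyde dehydrogenases make retinoic acid. Another 4 of the list were lower in eWAT than in each brown depot, the retinoid receptors Rarb (log2 difference to iBAT -2.66, adjusted p = 3.74e-05), Rxrg (-1.38, adjusted p = 0.000147) and Rxrb (-1.19, adjusted p = 6.18e-06) and the retinol dehydrogenase Rdh10 (-0.96, adjusted p = 8.34e-05). The receptor Rara was lower than in iWAT (log2 difference -0.85, adjusted p = 0.028), although iWAT 2, at 22.7 CPM, lay within the range of the eWAT libraries. These 5 were named after their values were seen. Aldh1a2 was 28.3 ± 1.23 CPM in eWAT, 3.85 ± 0.714 in iWAT, 0.629 ± 0.129 in scBAT and 0.252 ± 0.127 in iBAT (log2 difference to iWAT 2.88, SE 0.23, adjusted p = 0.000134). Aldh1a1 was 250 ± 18.9 CPM in eWAT and 88.0 ± 55.4 in iWAT (log2 difference 1.51, SE 0.40, adjusted p = 0.0232), and Aldh1a3 22.0 ± 1.22 and 9.19 ± 5.37 CPM (log2 difference 1.26, SE 0.32, adjusted p = 0.0203). The count of 4 was 1 without iWAT 1 or eWAT 1, 2 without eWAT 2, eWAT 3 or iWAT 1 and 3, and 7 without iWAT 2.

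**Figure D4:**
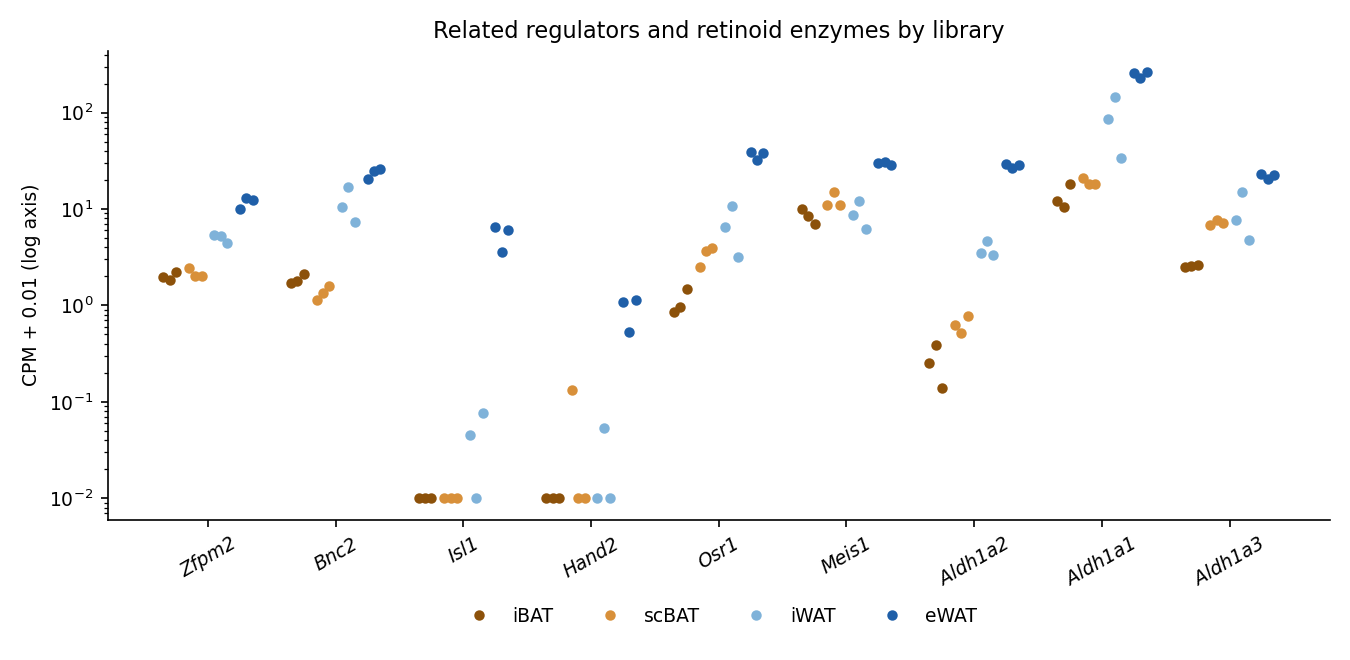
Level of related regulators and retinoid enzymes in each of the 12 libraries, as CPM plus 0.01 on a log axis, coloured by depot, so that points at the bottom had no read. Isl1 and Hand2 are at or near the bottom outside eWAT, Aldh1a2 is lower in iWAT and lowest in brown fat, and the iWAT and scBAT libraries overlap for Osr1.

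The genes whose level followed each member most closely over the 12 libraries were found by Pearson's correlation of log2 CPM, among genes whose highest depot mean was 1 CPM or more. The 12 points share 4 depots, so r mostly reflects the differences between depots, and the values are a description. Rnf112 and Naalad2 were closest to Wt1 (r = 0.997 and 0.996) and to Tcf21 (0.993 and 0.990), and Bnc1 was among the 5 nearest genes of both (0.995 and 0.989 in the same order). Isl1 was closest to Gata5 (0.995), and Rnf112 and Isl1 were among the nearest to Bnc1 (each 0.996). Rnf112 was 1.96 CPM in eWAT and 0.0381 CPM in iWAT on average, while Naalad2 was 25.7 CPM in eWAT and 7.10 to 8.02 CPM elsewhere.

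For the members present in all depots, other genes came first. Tmem98 was closest to Gata6 (r = 0.991, at 3.20, 4.73, 16.7 and 39.2 CPM in iBAT, scBAT, iWAT and eWAT), with Gpc6 (0.989) and Aldh1a2 (0.988) next. Rspo1, which is also on the list of mesothelial markers, was closest to Nr2f1 (0.982), followed by Lama1 (0.974) and by Upk3b and Tnfrsf11b (both 0.966). Nov was closest to Nr2f2 (0.989), then Fbln1 and the endothelial and mesothelial protein Thbd (both 0.987). Nov had depot means from 1.35 CPM in iBAT to 12.8 CPM in eWAT, a wider relative range than that of Nr2f2 itself. Gata4 was left out because its highest depot mean was under 1 CPM.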

How the data were processed

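RNA-seq libraries of 4 depots, 3 each, were analysed from the gene count table deposited by the authors. Per the submitters' processing notes, the tools were HTSeq 0.6.1p1, STAR 2.4.2a, edgeR, Picard 1.119 and bcl2fastq 1.8.3, and the build was mm10. The annotation and the strand setting are not given in the sources used here.

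The counts were fitted in edgeR 4.0.16 (R 4.3.3, limma 3.58.1) with TMM scaling, a mean per depot over all 12 libraries (8 residual degrees of freedom) and no replicate block. Genes were kept by filterByExpr (minimum count 10) and tested with the robust quasi-likelihood F test. P-values were adjusted by the Benjamini-Hochberg method over 14898 genes, with a threshold of 0.05. Ratios are of summed counts over scaled library sizes, with 95% exact binomial counting intervals, and where 1 depot had no read a floor of 3 counts over the depot gave a bound. The method was tested on simulated data in which the depots shared a mean, apart from changes set in eWAT. That setting does not cover genes without reads outside eWAT. Replicates differed by more than counting noise in every depot.

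All 8 members are named. From each other list, genes called in 1 direction for eWAT against each other depot are named, up to 4 by the smallest difference, plus exceptions stated as such. The 5 genes with the highest correlation over the libraries (prior count 2) were taken for each member, without predicted gene models, and the closest are named. Some genes that these rules select are not reported here. The members and lists were chosen with earlier results of these data known. Alternatives were other scaling, no filter, DESeq2 1.42.0, limma-voom, a replicate block, fits of 2 depots, and libraries left out. Exon lengths and positions are from GENCODE M21 (GRCm38).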

Additional observations from a re-analysis of the deposited data

How the results depend on the processing

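Of 810 alternative values for members, 744 kept their direction and side of the threshold, 57 lost and 3 gained a call, and 6 changed sign. The sign changes were Gata4 for eWAT against iWAT (-0.13 with limma-voom, -0.22 without iWAT 2, -1.15 without eWAT 3 to 0.61 without iWAT 3, and 1.66 without iWAT 1 and 3), Tcf21 for iWAT against scBAT (-0.0214 with limma-voom, and -0.89 without iWAT 1 to 1.59 without iWAT 3) and Nr2f1 for iWAT against scBAT (-0.16 without iWAT 1 and 3), none of them called. The cause was not tested. Members higher in eWAT than in each other depot numbered 7 with any 1 library left out and 5 with only the depots of each comparison in the fit, and leaving out 1 library gave 7 for eWAT against iWAT and 7 to 8 against iBAT or scBAT.

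Calls of iWAT against brown fat depended on the processing. Against iBAT, 6 members became 3 with limma-voom, 1 with only those 2 depots, 3 without iWAT 1 and 3, and 2 to 5 with any 1 library left out. Against scBAT, 4 became 1 with only those 2 depots, 2 without iWAT 1 and 3, and 2 to 5 with any 1 library left out. The count for scBAT over iBAT was 0 and became 1, Gata6, without iWAT 1 and 3. Nr2f2 for iWAT against iBAT lost its call in 17 of 20 alternatives. In fits of iWAT with 1 brown depot, Wt1, Tcf21, Gata4, Gata5 and Bnc1 did not pass the filter on low counts and were not tested, and Gata4 was not tested in fits of eWAT with 1 brown depot. Where iWAT 1 and 3 are left out, the lone iWAT library is assumed to vary like the other depots. Upper quartile scaling moved the median of all genes between eWAT and iBAT from 0.05 to 0.14 on the log2 scale and changed no direction of a member for eWAT.

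The labels do not say whether equal replicate numbers mark 1 animal. Of 18 same-number correlations between depots, 5 were over 0.1, against 8 of 36 for unequal numbers. Only 1 of 12 libraries correlated best with its own number in all 3 other depots. With 3 libraries a depot, these values cannot show whether the numbers mark pairs. With the replicate block, the members called were 7 for eWAT against iWAT, 8 against each brown depot, and 4 for iWAT against iBAT, where Wt1 (adjusted p = 0.0508) and Nr2f2 (adjusted p = 0.0746) lost their calls. Members with under 10 reads in a depot, such as Bnc1 in iWAT, are limited by counting error.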
